A study of Homo sapiens with 6 samples.

Results

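MYC, MAX, MGA, L3MBTL2 and PCGF6 were followed as 1 network of transcription factors and chromatin proteins through a pooled CRISPR screen, in which each guide RNA directs Cas9 to cut a chosen gene and the number of cells carrying that guide is then read by sequencing. Their guides were taken from the count table by the gene named for each guide, which gave 50 guides for 5 genes, 10 per gene, of 71526 guides for 7093 genes in all. All 50 guides passed the filter on library counts, so no member was lost. The genes were chosen with earlier results of these data known. MYC was selected on its fall in guide abundance in parental cells against the library, and which measured values the other 4 were chosen by is not recorded. Every difference from the library is therefore given for these genes as a description, without a p-value. Where a call of these genes or their guides against the library is named, it is a description too.

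The screen was run in HAP1, a near-haploid human line derived from chronic myeloid leukaemia. There were 2 samples of SETD2-mutant HAP1 cells, 2 of parental HAP1 cells and 2 of the guide library. SETD2 is the enzyme that places trimethylation on lysine 36 of histone H3, and the labels give neither its mutant allele nor how many clones carried it. Both lines had been infected at a multiplicity of infection of 0.7 and kept in puromycin for 12 doublings. Replicates of a line were divided from 1 infection, so the spread between samples behind the p-values below may be technical only. The labels call the library samples HAP1 too, and do not say whether they came from plasmid or from cells soon after infection. Counts of guides in genomic DNA carry no expression, so neither the cell type nor the expression of the 5 genes could be checked.

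MYC is a transcription factor that drives growth and ribosome production, and it binds DNA only as a dimer with MAX. MAX also pairs with proteins that act against MYC, among them the MXD family and MGA, a large protein with both a T-box and a MYC-type DNA binding domain. MGA and MAX, together with L3MBTL2 and PCGF6, belong to a variant Polycomb repressive complex 1 that also holds E2F6 and silences genes, including germline genes, in somatic and embryonic cells.

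Depth ranged from 25082426 counts in SETD2-mutant replicate 1 to 38428425 in library replicate 1. A chi-square per degree of freedom between replicates was 12.9 for SETD2-mutant, 14.1 for parental and 1.37 for library samples, where counting error alone gives about 1. Abundances are given as CPM, the share of a guide in all counts of its sample on the usual scale. The change reported for a gene averages the log2 fold changes that edgeR fitted to its guides, with a standard error (SE) over guides, which does not include spread between cultures. Every comparison with the library uses the same 2 library samples, and the SETD2-mutant samples enter both of their comparisons. A gene was called depleted or enriched when robust rank aggregation (RRA), which asks whether its guides rank together at 1 end of all guides, gave a Benjamini-Hochberg adjusted p below 0.05. A guide was called lower or higher when its own edgeR adjusted p was below 0.05. The RRA p-value measures agreement over guides, not spread between cultures. The edgeR test estimated spread from all 6 samples together, library samples included. Its p-values between the lines thus rest in part on the smaller spread of the library samples.

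MYC guides had nearly vanished from both lines. The 10 guides together held 79 and 122 counts in SETD2-mutant samples, 93 and 106 in parental samples, and 3642 and 3133 in library samples. Both lines thus lay far below the library, and their ranges overlapped each other. These sums were 3.15 and 3.61 CPM in SETD2-mutant samples, 2.45 and 3.16 CPM in parental samples and 94.1 and 89.6 CPM in library samples. In percent of the library mean, 3.43% and 3.93% were left in SETD2-mutant samples and 2.67% and 3.44% in parental samples. Exact Poisson 95% intervals of the summed counts, which cover counting error only, were 62.5 to 98.5 and 101 to 146 in SETD2-mutant samples and 75.1 to 114 and 86.8 to 128 in parental samples. These intervals are of counts not scaled for depth, so their overlap does not compare the lines.

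**Figure D1:**
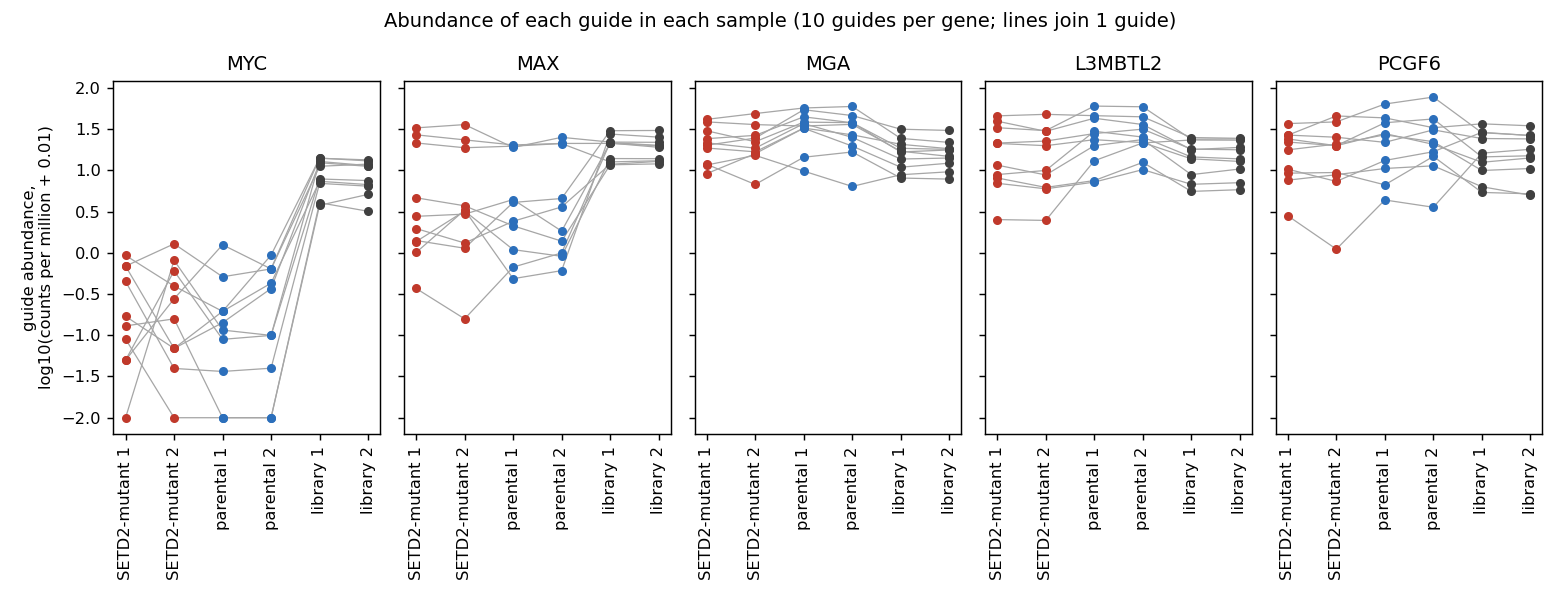
Abundance of every guide of the 5 genes in the 6 samples, as log10 of CPM plus 0.01 on the y axis, with 1 point per guide and sample and lines joining the samples of a guide. MYC guides fall together in all 4 cell samples, MAX guides separate into 7 that fall and 3 that do not, and most MGA, L3MBTL2 and PCGF6 guides lie above their library level in parental samples.

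All 10 MYC guides were below the library in both lines. The mean change against the library was −5.12 (SE 0.303, 10 guides) in SETD2-mutant cells, with guides between −6.86 and −3.76, and −6.42 (SE 0.728) in parental cells, with guides between −10.23 and −3.61. MYC ranked as the lowest of 7090 genes in parental cells and as number 16 from the lowest in SETD2-mutant cells on this measure, which is what brought it into the set. The guides HZD_ODT_06050 and HZD_ODT_06055 had 0 counts in both parental samples. Taken at a floor of 3 counts per library, they were at least 42.7-fold and at least 52.4-fold lower in parental cells than in the library. With these 2 guides at their bound, the parental mean was −5.52 in place of −6.42. That is above the fitted mean of ATP6V0C (−5.62), but no bound was applied to ATP6V0C, so these 2 means are not on the same measure. The lowest rank by fitted means includes fitted values of guides without counts. With a prior count of 2, mean changes in parental samples were −5.49 and −5.14 for MYC and −4.83 and −4.63 for ATP6V0C.

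MYC as a gene was not called different between the lines, and 1 of its guides was. HZD_ODT_06053, among the most abundant MYC guides, had 0.678 and 1.27 CPM in SETD2-mutant samples, 0.501 and 0.627 CPM in parental samples and 14.04 and 12.98 CPM in library samples. HZD_ODT_06047 ran the other way, with 0.0399 and 0.266 CPM in SETD2-mutant samples, 1.24 and 0.627 CPM in parental samples and 11.2 and 11.9 CPM in library samples, and was the only MYC guide called lower in SETD2-mutant than in parental cells (−2.47, edgeR adjusted p = 0.0270). Over the 10 guides the fitted change was 1.30 (SE 0.724) with 8 guides above 0 and an RRA adjusted p of 1 for depletion and for enrichment. That value leans on guides without counts: the mean log2 CPM changes from the library, which use a prior count of 2, were −5.10 and −5.00 in SETD2-mutant samples and −5.49 and −5.14 in parental samples. With 1 sample left out the fitted change ranged from 0.48 without SETD2-mutant replicate 2 and 0.59 without SETD2-mutant replicate 1 to 1.59 without parental replicate 2, and MYC was called in none of these fits.

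By summed counts MYC kept 3.68% of its library abundance in SETD2-mutant cells and 3.06% in parental cells, the fourth lowest and the lowest of 7090 genes. The 53 cytosolic ribosomal protein genes, the usual yardstick of genes a cell cannot lose, kept a median of 15.1% in SETD2-mutant cells (range 1.97% to 110%) and 17.8% in parental cells (range 5.55% to 110%). MYC thus lay within the range of the ribosomal genes in SETD2-mutant cells and below all of them in parental cells. The MYC guides carry IDs of the class marked ODT in the table and the other 40 guides IDs of the class marked EPI, and the median changes of all guides of the ODT and EPI classes were 0.08 and −0.18 in SETD2-mutant cells and 0.07 and −0.19 in parental cells.

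MAX, the obligate partner of MYC, was depleted less deeply and unevenly over its guides. The 10 guides summed to 94.4 and 93.5 CPM in SETD2-mutant samples, 73.9 and 81.1 CPM in parental samples and 194 and 188 CPM in library samples. Both lines lay below the library, and the SETD2-mutant sums lay above the parental sums. The mean change against the library was −2.28 (SE 0.740) in SETD2-mutant cells and −2.37 (SE 0.658) in parental cells, with medians over guides of −2.70 in SETD2-mutant cells and −2.72 in parental cells.

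The MAX mean joins 7 guides that fell in both lines with 3 that did not. HZD_EPI_04096 had 0.359 and 0.148 CPM in SETD2-mutant samples, 0.659 and 0.985 CPM in parental samples and 21.7 and 20.01 CPM in library samples. HZD_EPI_04102 had 21.4 and 18.7 CPM in SETD2-mutant samples, 19.6 and 21.1 CPM in parental samples and 12.6 and 13.0 CPM in library samples. HZD_EPI_04094 had 26.9 and 23.3 CPM in SETD2-mutant samples, 20.3 and 21.1 CPM in parental samples and 21.2 and 19.8 CPM in library samples. Every cell sample was below both library samples for HZD_EPI_04096 and above both for HZD_EPI_04102, so guides to the same gene moved in opposite directions. The third such guide, HZD_EPI_04101, changed by 0.65 in SETD2-mutant cells and 0.01 in parental cells. The other 7 lay between −6.41 and −1.50 in SETD2-mutant cells and between −5.62 and −2.04 in parental cells.

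This many guides above 0 was uncommon among depleted genes. In parental cells, however, HZD_EPI_04101 stood only at 0.005 and HZD_EPI_04094 at 0.014, and neither was called higher there. Of depleted genes with 10 guides, 16 of 627 (2.55%) in SETD2-mutant cells and 14 of 686 (2.04%) in parental cells had 3 or more guides above 0. No guide above 0 was seen for 65.1% of them in SETD2-mutant cells and 65.2% in parental cells, MYC included. The sequences and cut sites of the guides were not analysed here, so the efficiency of the 3 guides was not tested.

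Between the lines MAX showed no net change. The fitted change was 0.09 (SE 0.403), with 5 guides below 0 and 5 above and an RRA adjusted p of 0.886 for enrichment. Single guides did differ: HZD_EPI_04099 had 1.40 and 1.12 CPM in SETD2-mutant samples, against 4.06 and 4.54 CPM in parental samples, and was called lower (−1.78, edgeR adjusted p = 0.00159). HZD_EPI_04098 had 4.63 and 3.70 CPM in SETD2-mutant samples, against 2.11 and 1.37 CPM in parental samples, and was called higher. Neither pair of values overlapped, and in all 2 MAX guides were called lower and 3 higher in SETD2-mutant cells.

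**Figure D2:**
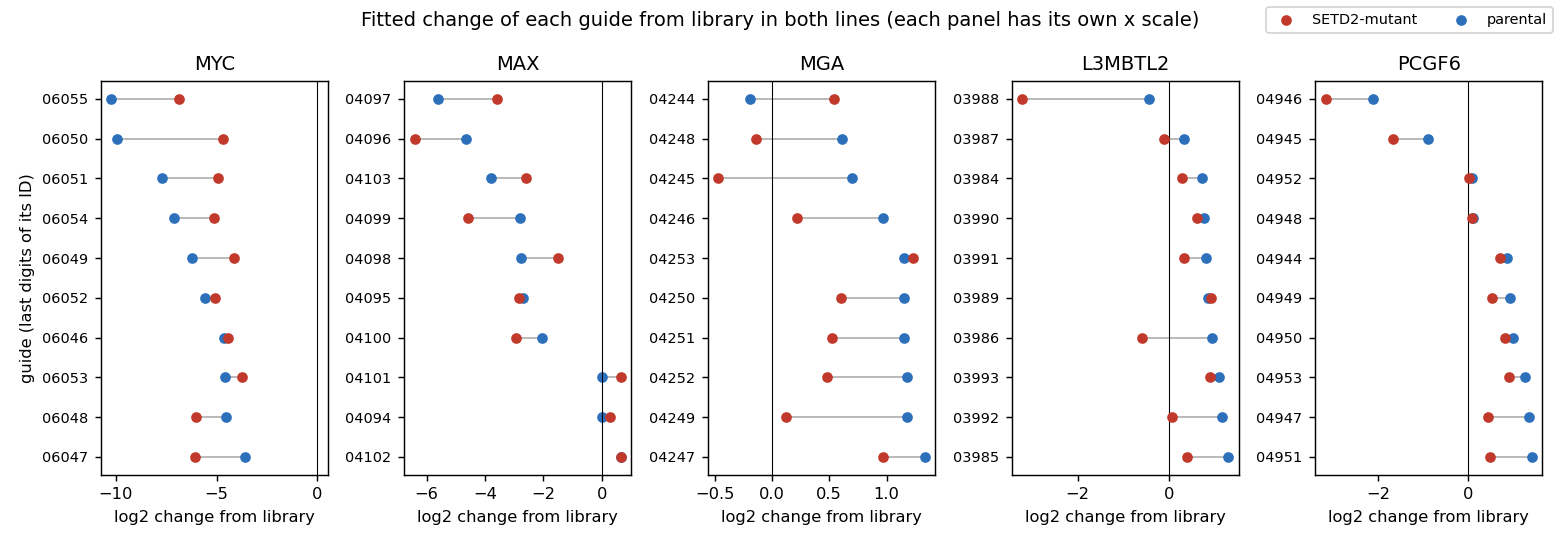
Fitted log2 change of each guide from the library on the x axis, in SETD2-mutant (red) and parental cells (blue), with guides ordered by their parental change and an x scale of its own in each panel. Red points lie left of blue ones for 8 of 10 MGA, 9 of 10 L3MBTL2 and 10 of 10 PCGF6 guides, and on either side for MAX; the fitted values of the 2 lowest MYC guides rest on parental counts of 0 and are not bounds.

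MGA, which pairs with MAX against MYC and anchors the variant Polycomb complex, went the other way from MYC and MAX. Its guides summed to 227 and 231 CPM in SETD2-mutant samples, 354 and 311 CPM in parental samples and 170 and 164 CPM in library samples. The 3 groups did not overlap, with parental samples highest and library samples lowest. In percent of the library mean this was 136% and 138% in SETD2-mutant samples and 212% and 186% in parental samples. The mean change against the library was 0.41 (SE 0.158, 8 guides above 0) in SETD2-mutant cells and 0.92 (SE 0.143, 9 guides above 0) in parental cells, which ranked as number 16 from the highest of 7090 genes in parental cells.

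Between the lines MGA was called depleted in SETD2-mutant cells. HZD_EPI_04245 had 20.1 and 24.5 CPM in SETD2-mutant samples, 54.2 and 46.0 CPM in parental samples and 31.5 and 30.4 CPM in library samples. HZD_EPI_04252 had 24.1 and 26.5 CPM in SETD2-mutant samples, 44.4 and 37.6 CPM in parental samples and 18.5 and 17.9 CPM in library samples. The first lay below the library in the SETD2-mutant samples alone, and the second lay above it in all 4 cell samples. Over the 10 guides the change was −0.51 (SE 0.176), 8 guides were below 0, 7 were called lower and the RRA adjusted p was 0.0101. Of the 2 guides above 0, HZD_EPI_04253 stood at 0.08 and HZD_EPI_04244 at 0.73, the last with 11.6 and 15.2 CPM in SETD2-mutant samples and 9.76 and 6.36 CPM in parental samples. The call was lost when any of the 4 cell samples was left out (adjusted p between 0.0924 and 0.141) and when RRA considered guides only up to a rank share of 0.1 (adjusted p = 0.652).

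L3MBTL2, a reader protein with MBT domains in the same Polycomb complex, followed a like course. Its guides summed to 198 and 183 CPM in SETD2-mutant samples, 277 and 285 CPM in parental samples and 157 and 158 CPM in library samples. The parental samples were highest and no groups overlapped. The mean change against the library was −0.04 (SE 0.382, median 0.31, 7 guides above 0) in SETD2-mutant cells and 0.76 (SE 0.158, 9 guides above 0) in parental cells.

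The SETD2-mutant mean of L3MBTL2 was set by 1 guide more than any other. HZD_EPI_03988 had 2.51 and 2.46 CPM in SETD2-mutant samples, 13.0 and 21.5 CPM in parental samples and 23.3 and 23.2 CPM in library samples. HZD_EPI_03986 had 8.86 and 9.94 CPM in SETD2-mutant samples, 29.7 and 25.2 CPM in parental samples and 14.5 and 13.7 CPM in library samples. HZD_EPI_03989 had 45.6 and 47.6 CPM in SETD2-mutant samples, 45.9 and 44.4 CPM in parental samples and 24.9 and 24.4 CPM in library samples. The lines were apart for the first 2 of these guides and overlapped for the last. Between the lines L3MBTL2 changed by −0.80 (SE 0.269, median −0.46), with 9 guides below 0, 5 called lower and an RRA adjusted p of 0.0218. Leaving out a sample lost this call in 5 of 6 cases (adjusted p between 0.0526 and 0.279), parental replicate 2 being the exception.

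PCGF6, the RING-type subunit that defines this variant of the complex, moved in the same direction and was not called. Its guides summed to 184 and 196 CPM in SETD2-mutant samples, 255 and 272 CPM in parental samples and 183 and 179 CPM in library samples. Both parental samples lay above all others, and both SETD2-mutant samples lay just above the library. The mean change against the library was −0.07 (SE 0.414, median 0.48) in SETD2-mutant cells and 0.41 (SE 0.361, median 0.91) in parental cells, with 8 of 10 guides above 0 in each line.

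Guides of PCGF6 disagreed with each other in both lines. HZD_EPI_04946 had 2.79 and 1.10 CPM in SETD2-mutant samples, 4.35 and 3.55 CPM in parental samples and 16.1 and 18.0 CPM in library samples. HZD_EPI_04947 had 36.8 and 38.6 CPM in SETD2-mutant samples, 63.5 and 77.1 CPM in parental samples and 28.5 and 26.5 CPM in library samples. The first was below the library and the second above it in all 4 cell samples, and for both the SETD2-mutant values lay below the parental ones. Between the lines all 10 guides were below 0, from −1.06 to −0.02, with a mean of −0.49 (SE 0.124) and 3 guides called lower. The RRA adjusted p was 0.575 (unadjusted p = 0.0327), so PCGF6 did not pass the test. A limma fit of gene means, which does not ask whether guides rank together, gave −0.48 with an adjusted p of 0.00299, and that fit called 22.0% of all genes depleted and 12.6% enriched between the lines.

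Set against all genes, 2 of the 5 genes were called depleted in SETD2-mutant against parental cells, where 1.28% of tested genes were, and 0 were called enriched, where 1.03% were. For 3 of the 5 genes both SETD2-mutant values lay below both parental values in mean log2 change, against 38.8% of all genes. For the other 2, MYC and MAX, both lay above, against 26.9% of all genes. Of the 50 guides, 18 were called lower and 3 higher in SETD2-mutant cells, where 12.8% and 11.5% of all guides were. Both SETD2-mutant values were below both parental values for 26 of the 50 guides, against 29.8% of all guides, and above for 8, against 29.4%. Of these 26 guides, 8 target MGA, 7 L3MBTL2, 6 PCGF6, 3 MAX and 2 MYC. Since the 5 genes were picked with such results known, these calls are no independent support.

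Against the library, 2 of the 5 genes were called depleted in SETD2-mutant cells, where 9.04% of tested genes were, and the same 2, MYC and MAX, in parental cells, where 9.90% were. No member was called enriched in SETD2-mutant cells, and MGA and L3MBTL2 were in parental cells, where the share of all genes was 1.11% in each line. Among guides, 22 of 50 were called lower and 14 higher in SETD2-mutant cells, where 23.7% and 22.2% of all guides were. In parental cells 19 were called lower and 23 higher, where 21.1% and 18.9% were. Nothing is read from these shares, because MYC was chosen on its fall in parental cells and the other genes with earlier results known. The limma fit of gene means called MGA higher than the library in SETD2-mutant cells (0.39) and PCGF6 in parental cells (0.39). It did so while calling 38.0% of all genes depleted and 23.8% enriched in SETD2-mutant cells, and 31.3% and 23.6% in parental cells.

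**Figure D3:**
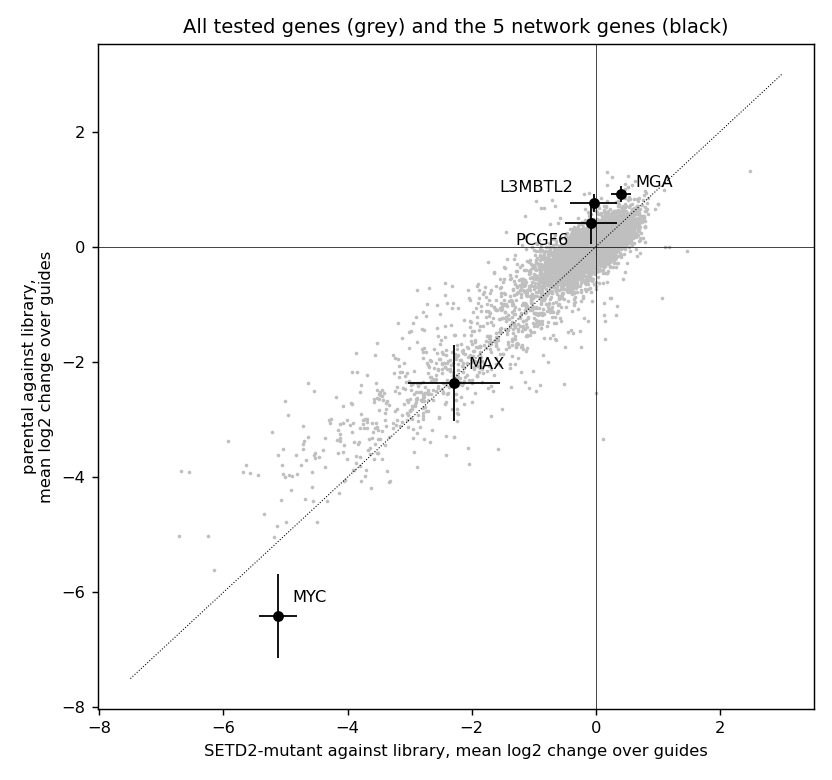
Mean log2 change over guides of every tested gene (grey) in SETD2-mutant cells against the library (x axis) and in parental cells against the library (y axis), with the 5 genes in black and bars of 1 SE over guides. MYC lies lowest on the y axis by its fitted value, MAX lies on the dotted line of equal change, and MGA, L3MBTL2 and PCGF6 lie above that line at −0.07 to 0.41 in SETD2-mutant cells and 0.41 to 0.92 in parental cells.

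The sign of the small changes depends on what counts as no change. On the TMM scaling used above, the 1536 guides of the class marked CTRL had a median change between the lines of 0.03. Against the library their medians were 0.05 in SETD2-mutant cells and 0.01 in parental cells. The table holds 100 guides labelled dummyguide, whose design the labels do not state. They summed to 189% and 191% of their library abundance in SETD2-mutant samples and 173% and 169% in parental samples. Scaling on them shifted guides by about −0.92 in SETD2-mutant against library, −0.78 in parental against library and −0.15 in SETD2-mutant against parental. Guides without counts moved by other amounts: HZD_ODT_06050 went from −9.94 to −10.53 in parental against library. On that scale MGA stood at −0.52 in SETD2-mutant cells and 0.15 in parental cells, L3MBTL2 at −0.96 in SETD2-mutant cells and −0.01 in parental cells, and PCGF6 at −0.998 in SETD2-mutant cells and −0.36 in parental cells. The differences between the lines stayed below 0 for all 3 genes, at −0.66 for MGA (RRA adjusted p = 0.0221), −0.95 for L3MBTL2 (0.0161) and −0.63 for PCGF6 (0.604). The 0.09 of MAX became −0.06. The 3 MAX guides that had not fallen were below 0 on that scale, at −0.63 to −0.28 in SETD2-mutant cells and −0.77 to −0.11 in parental cells.

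The genes lie apart in the genome, MYC on chromosome 8, MAX at 65006101 to 65102695 on chromosome 14, MGA at 41621224 to 41769940 on chromosome 15, L3MBTL2 at 41205312 to 41231271 on chromosome 22 and PCGF6 at 103302796 to 103351140 on chromosome 10 (RefSeq, GRCh38.p14). Genes within 10 Mb of each that were not called had median changes between the lines of 0.08 near MYC (19 genes), 0.09 near MAX (54), −0.00 near MGA (66), −0.06 near L3MBTL2 (88) and −0.02 near PCGF6 (55). These medians leave out called genes by construction, and a shift shared along these chromosome parts was not tested.

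Likeness to other genes was measured as the Euclidean distance over the 4 cell samples in mean log2 change from the library, a description in which all genes share libraries and depth. MYC was nearest to ATP6V0C (0.854), RFC3 (1.13) and RPL12 (1.17), at a median distance of 10.3 to all genes. MAX was nearest to DIMT1 (0.170), CHEK1 (0.185) and DCPS (0.198). MYC and MAX lay 5.73 apart, so the partners were not each other's nearest genes. This distance was below the MYC median and above the median distance of MAX to all genes, 4.56. MGA was nearest to RCE1 (0.184), ARID4A (0.239) and DGUOK (0.246), and L3MBTL2 to ZNF711 (0.165), SLFN11 (0.168) and PDF (0.221). PCGF6 was nearest to SLC2A13 (0.0842), GGH (0.0927) and ROCK2 (0.107). L3MBTL2 lay 0.511 from PCGF6 and 0.714 from MGA, and MGA lay 1.03 from PCGF6, so each had other genes nearer to it. The median distance to all genes was 1.17 for L3MBTL2 and 0.771 for PCGF6. The distance between MGA and PCGF6 was thus above the PCGF6 median, though below that of MGA. The distances of L3MBTL2 from PCGF6 and from MGA lay below the medians of both genes in each pair.

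The other genes of the network were taken from lists that were also drawn up with earlier results known, and their calls stand beside the same shares of all genes. Of 10 listed MAX dimer partners 4 were measured, and of the MLX branch, a parallel set of dimers, 0 of 3. Beside MYC and MGA these were MYCN, the neural relative of MYC, and MXI1, an MXD-type antagonist. MYCN stood at 0.64 in SETD2-mutant cells and 0.65 in parental cells against the library, and MXI1 at 0.61 in SETD2-mutant cells and 0.07 in parental cells, and neither passed RRA in any comparison. Both samples of SETD2-mutant cells were above both parental samples for MXI1, as for 26.9% of all genes. Its mean changes were 0.58 and 0.58 in SETD2-mutant samples and 0.03 and 0.10 in parental samples. The limma fit of gene means called MXI1 higher between the lines (0.51), as it did 12.6% of all genes. Against the library it called MXI1 (0.58) and MYCN (0.62) higher in SETD2-mutant cells, with 23.8% of all genes. In parental cells it called MYCN higher (0.64), with 23.6% of all genes.

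Of 12 measured partners of MGA in the Polycomb complex, 1 was depleted between the lines, WDR5, a scaffold shared with histone H3 lysine 4 methyltransferases. WDR5 changed by −1.22 (SE 0.410, RRA adjusted p = 0.0109), with mean changes of −3.97 and −3.85 in SETD2-mutant samples and −2.80 and −2.60 in parental samples, which did not overlap. The call was lost when only these 2 groups were fitted (adjusted p = 0.157). The median of the 12 between the lines was −0.09, beside −0.04 over all genes, and none was enriched. Of all tested genes 1.28% were depleted between the lines and 1.03% enriched. Against the library 9.04% were depleted in SETD2-mutant cells and 9.90% in parental cells. Against the library CBX3, a heterochromatin protein, and WDR5 were depleted in both lines: CBX3 by −1.40 in SETD2-mutant cells and −0.94 in parental cells, and WDR5 by −3.94 in SETD2-mutant cells and −2.72 in parental cells. The CBX3 call in parental cells was lost without any of the 4 cell samples (adjusted p between 0.0574 and 0.471), and that in SETD2-mutant cells without SETD2-mutant replicate 1 (0.0843). Both CBX3 calls were also lost with an RRA limit of 0.1 (0.967 in SETD2-mutant cells, 0.832 in parental cells) and with dummyguide scaling (0.379 in SETD2-mutant cells, 0.0969 in parental cells). None of the 5 other PCGF paralogs was called in any of the 3 comparisons. Of 8 other MBT domain proteins, MBTD1 (−0.84, adjusted p = 0.0317) and SCMH1 (−0.75, adjusted p = 0.0301) were depleted by RRA between the lines, and MBTD1, a subunit of the TIP60 acetyltransferase complex, also against the library in both (−1.97 in SETD2-mutant cells, −1.13 in parental cells). The MBTD1 call between the lines was lost without any of the 4 cell samples (adjusted p between 0.0680 and 0.304), with only these 2 groups fitted (0.0750) and with an RRA limit of 0.1 (0.235). Its call in parental cells against the library was lost with that limit (adjusted p = 1) and with dummyguide scaling (0.111). The SCMH1 call was lost without SETD2-mutant replicate 2 (0.0794), parental replicate 1 (0.0976) or parental replicate 2 (0.0688).

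Cofactors through which MYC acts were mostly depleted in both lines. Of 10 measured, 6 were depleted in SETD2-mutant cells (9.04% of all tested genes) and 8 in parental cells (9.90%). Their medians were −2.33 in SETD2-mutant cells (all genes −0.05) and −1.94 in parental cells (all genes −0.01). TRRAP, a scaffold of acetyltransferase complexes, stood at −2.94 in SETD2-mutant cells and −2.16 in parental cells, and the helicases RUVBL1 at −3.72 in SETD2-mutant cells and −3.98 in parental cells and RUVBL2 at −3.74 in SETD2-mutant cells and −3.07 in parental cells. PAF1, of the elongation complex of that name, was depleted in parental cells (−1.73). In SETD2-mutant cells PAF1 stood at −1.28 and was not called (RRA adjusted p = 0.353), and its change between the lines (0.45) was not called either. Between the lines SMARCB1, a core SWI/SNF subunit, was the 1 cofactor enriched, at 0.71 (SE 0.182, RRA adjusted p = 2.1e-06), with −0.14 and −0.02 in SETD2-mutant samples and −0.76 and −0.81 in parental samples. WDR5, which is on this list too, was the 1 depleted.

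Factors of transcription elongation and the Mediator complex were enriched in SETD2-mutant against parental cells in 3 of 7 measured cases and depleted in 0. Of all tested genes 1.03% were enriched and 1.28% depleted there. MED1 changed by 1.31 between the lines (SE 0.248, RRA adjusted p = 0.000726), with 0.07 and 0.14 in SETD2-mutant samples and −1.19 and −1.20 in parental samples. CDK8, the Mediator kinase, changed by 0.82 (adjusted p = 2.94e-05), with 0.75 and 0.64 in SETD2-mutant samples and −0.05 and −0.17 in parental samples. BRD3, a reader of acetylated histones, was called by RRA as well (0.33, adjusted p = 0.0204). BRD3 lost the call without either SETD2-mutant sample or parental replicate 1 (adjusted p between 0.134 and 0.219) and with dummyguide scaling (0.0826). The median of the 7 genes was 0.33 between the lines. Against the library, 3 of the 7 were depleted and 1 was enriched in SETD2-mutant cells, where 9.04% and 1.11% of all tested genes were. In parental cells 5 were depleted and 0 enriched, where 9.90% and 1.11% of all tested genes were. The enriched gene was CDK8 (0.71, RRA adjusted p = 0.0295), and this call was lost in 5 of 16 alternatives. Against the library CDK9, the kinase that releases paused polymerase, stood at −2.89 in SETD2-mutant cells and −2.65 in parental cells, CDK7 at −2.30 in SETD2-mutant cells and −2.25 in parental cells and BRD2 at −0.99 in SETD2-mutant cells and −1.15 in parental cells.

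Genes of MYC protein turnover did not pass RRA between the lines in any of 9 measured cases. Against the library 4 of them were called in SETD2-mutant cells and 5 in parental cells, all as depleted. Of all tested genes 9.04% were depleted in SETD2-mutant cells and 9.90% in parental cells. AURKA, a mitotic kinase known to stabilise MYC proteins, stood at −2.96 in SETD2-mutant cells and −3.00 in parental cells. KIAA1524, which encodes the phosphatase inhibitor CIP2A, stood at −2.84 in SETD2-mutant cells and −2.36 in parental cells, the ubiquitin ligase HUWE1 at −1.46 in SETD2-mutant cells and −1.13 in parental cells, and the deubiquitinase USP36 at −1.42 in SETD2-mutant cells and −1.69 in parental cells. HUWE1 lost its call in SETD2-mutant cells without SETD2-mutant replicate 1 (adjusted p = 0.113) and in parental cells without parental replicate 1 (0.0577), and USP36 its call in SETD2-mutant cells without SETD2-mutant replicate 2 (0.0874). With an RRA limit of 0.1 neither gene was called in either line (adjusted p between 0.0524 and 1). Dummyguide scaling ended both HUWE1 calls (0.504 in SETD2-mutant cells, 0.251 in parental cells) and the USP36 call in SETD2-mutant cells (0.899).

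Among 14 measured textbook targets of MYC, 3 were enriched and 0 depleted between the lines, where 1.03% and 1.28% of all tested genes were. CAD, the first enzyme of pyrimidine synthesis, changed by 3.45 (SE 0.354, RRA adjusted p = 6.12e-16), with 0.15 and 0.06 in SETD2-mutant samples and −3.32 and −3.27 in parental samples, and no gene had a higher change between the lines. CDK4, a kinase of the G1 phase, changed by 1.21 (adjusted p = 2.19e-05) and TFRC, the transferrin receptor, by 1.03 (adjusted p = 0.0248). The TFRC call was lost without either SETD2-mutant sample or parental replicate 1 (adjusted p between 0.148 and 0.424), with DESeq2 per guide (0.122) and with an RRA limit of 0.1 (0.920). Against the library 6 of the 14 were depleted in SETD2-mutant cells (9.04% of all tested genes) and 8 in parental cells (9.90%). The nucleolar protein NPM1 stood at −2.65 in SETD2-mutant cells and −2.33 in parental cells, RRM2, a ribonucleotide reductase subunit, at −3.73 in SETD2-mutant cells and −3.15 in parental cells, hexokinase HK2 at −3.25 in SETD2-mutant cells and −2.20 in parental cells and the guanine nucleotide enzyme IMPDH2 at −2.29 in SETD2-mutant cells and −3.30 in parental cells. The IMPDH2 call in SETD2-mutant cells was lost with an RRA limit of 0.1 (adjusted p = 0.361) and with dummyguide scaling (0.119).

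**Figure D4:**
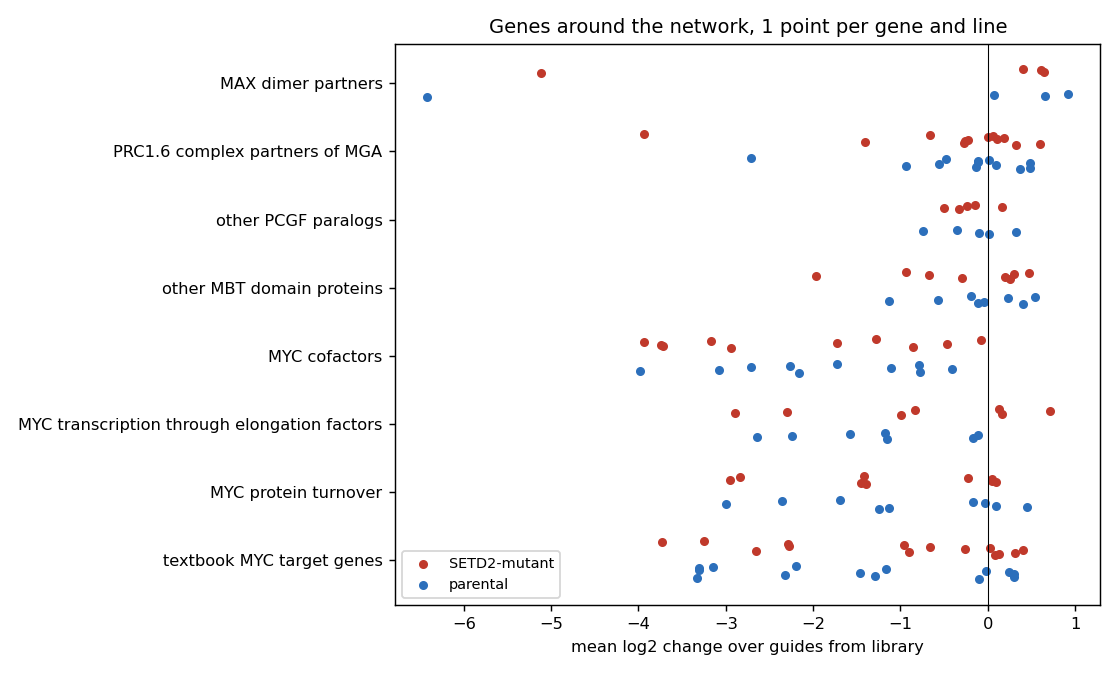
Mean log2 change over guides against the library on the x axis for each measured gene of 8 lists around the network, with 1 point per gene in SETD2-mutant (red) and parental cells (blue). MYC stands alone at the left among MAX dimer partners, cofactors spread from −3.94 to −0.07 in SETD2-mutant cells and from −3.98 to −0.41 in parental cells, and the other PCGF paralogs stay within −0.51 to 0.16 in SETD2-mutant cells and −0.75 to 0.33 in parental cells.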

How the data were processed

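Guide abundance was read by sequencing of guides amplified from genomic DNA of 6 samples. The authors deposited raw counts per guide, whole numbers without scaling. MAGeCK and hg38 are named in the submitters' processing notes, with no role or version. The table held 71626 guides, of which 100 were labelled dummyguide, and 7073 of 7093 gene symbols matched RefSeq.

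Guides with a mean library count of at least 30 were kept (71470). All 6 samples were fitted by group with edgeR 4.0.16 in R 4.3.3 (TMM scaling, robust quasi-likelihood fit, glmQLFTest), per guide. Genes with at least 3 guides (7090) were tested by RRA with a rank share limit of 0.25, rebuilt with an exact null since MAGeCK was not run. Adjustment was by Benjamini-Hochberg over the whole table in each direction. The script was tested on simulated counts. Alternatives used DESeq2 1.42.0 and limma 3.58.1 (gene means of log2 CPM, prior count 2), other scalings and filters, and samples left out.

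Members and lists were chosen with earlier results of these data known. All member guides are described, and from each list at most 4 called genes per comparison by lowest RRA p, plus the 3 genes nearest to each member. A listed gene that is not reported here was left out of its list's counts. Guide sequences were not used here.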

Additional observations from a re-analysis of the deposited data

Results flagged for a closer look

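The items here are those whose change from the library differed between the lines by the test of SETD2-mutant against parental cells itself (edgeR with RRA, adjusted p below 0.05). Of the 5 network genes these were MGA, at −0.51, and L3MBTL2, at −0.80. Among the listed partners, cofactors and targets, WDR5 (−1.22), MBTD1 (−0.84) and SCMH1 (−0.75) were lower in SETD2-mutant than in parental cells. CAD (3.45), MED1 (1.31), CDK4 (1.21), TFRC (1.03), CDK8 (0.82), SMARCB1 (0.71) and BRD3 (0.33) were higher. All are log2 values averaged over guides, each group holds 2 samples from 1 infection, and these genes were listed with earlier results known.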

How the results depend on the processing

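Over 16 alternatives, 1142 of 1236 recomputed values kept direction and side of the threshold, or stayed within 1.5 times for counts. The SETD2-mutant against parental call of MGA was lost with an RRA limit of 0.1 (−0.51, adjusted p = 0.652), and that of L3MBTL2 with a replicate block (−0.79, 0.0551). Leaving out 1 sample gave −0.62 to −0.39 for MGA and −0.87 to −0.70 for L3MBTL2. L3MBTL2 in SETD2-mutant cells against the library ranged from −0.11 to 0.028, above 0 only without SETD2-mutant replicate 2. Samples of the same number did not deviate together (correlations −0.005 to −0.003), so they share only a number; the replicate block changed no other call of the 5 genes or of the listed genes.

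Scaling on dummyguide counts reversed MAX between the lines (−0.062), L3MBTL2 (−0.012), PCGF6 (−0.36), MXI1 (−0.70) and MYCN (−0.12) in parental cells, and MGA (−0.52), CDK8 (−0.22), MXI1 (−0.31) and MYCN (−0.29) in SETD2-mutant cells. Called guides of the 5 genes were then 35 lower and 0 higher in SETD2-mutant cells and 7 higher in parental cells, and 35 genes were enriched in SETD2-mutant cells. The shift stated in the report is this scaling's construction.

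With limma on gene means, PCGF6 passed between the lines (−0.48) and in parental cells (0.39), and MGA in SETD2-mutant cells (0.39). That fit called 1561 genes depleted and 895 enriched between the lines, against 91 and 73 by RRA, 2693 and 1687 in SETD2-mutant cells, against 641 and 79, and 2217 and 1674 in parental cells, against 702 and 79. Member guides called higher between the lines, 3 in the report, numbered 7 with DESeq2, 1 with only the 2 groups fitted, and 1 to 7 without 1 sample. Member guides higher in SETD2-mutant cells against the library, 14 in the report, numbered 7 without library replicate 1, 8 without library replicate 2 and up to 17 without another sample. Genes enriched there numbered 50 without SETD2-mutant replicate 1 and up to 85 without another sample. With only the 2 groups fitted, 13 member guides were called lower between the lines, against 18 in the report. The cause of these changes was not tested. MYC counts in the cell samples are too few to order the lines.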
